A study of Saccharomyces cerevisiae with 8 samples.

Results

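Cell wall glucan and chitin remodelling enzymes were followed in budding yeast through 10 genes, UTR2, CRH1, CRR1, GAS1, GAS3, GAS5, BGL2, SCW4, SCW10 and EXG1. They were identified as the probe sets of the array annotated to exactly 1 of these genes, which gave 11 of the 9275 probe sets other than controls, with 2 for SCW10. The study hybridised RNA from 8 samples, each to its own Affymetrix YG_S98 array. The 4 groups of 2 arrays were a hem1 deletion strain in rich medium (YPD) with 250 µM 5-aminolevulinic acid (ALA), the same strain in YPD without ALA, a wild type strain (BY45742 as labelled) in YPD in air, and that wild type in YPD under hypoxia. ALA is the product of the first enzyme of heme synthesis, which HEM1 encodes, so the hem1 strain depends on supplied ALA for heme. Both hem1 groups were grown for 6 h with ALA, washed and then cultured for 16 h in 15 ml, so the group without ALA had been fed it earlier. Both wild type groups were grown for 6 h and then for 12 h in 15 ml, the hypoxic ones in an anaerobic chamber. The sources used here do not name the strain background of the hem1 deletion. The HEM1 probe set read 460 and 608 on the arrays labelled hem1 with ALA, 849 and 696 on those labelled hem1 without ALA, and in the wild type 707 and 683 under normoxia against 1413 and 1613 under hypoxia, so it was not absent from the arrays labelled hem1. Whether it reads a part outside the deletion is not known here, so it does not check the labels, and "with ALA" and "without ALA" below mean the arrays labelled hem1 with and without ALA, in every direction given. The labels do not say whether the wild type arrays of a group came from separate cultures, so the p-values cover the spread between samples alone, and that may be technical.

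The yeast wall is a mesh of β-1,3-glucan to which β-1,6-glucan, mannoproteins and, mainly around the bud neck and septum, chitin are attached. Newly made glucan chains leave the plasma membrane as linear polymers and are elongated, branched and cross-linked outside the cell by secreted or membrane-anchored enzymes. Crh1 and Utr2 transfer chitin chains onto glucan, and Crr1 is their homolog of the spore wall. The Gas family includes membrane-anchored transferases that cut and rejoin β-1,3-glucan, with Gas1 as the main one in growing cells. Bgl2, Scw4 and Scw10 form a family of soluble wall proteins acting on β-1,3-glucan, and Exg1 is a secreted exoglucanase that trims it from the chain end.

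All values are MAS5 signal intensities on a linear scale, with n = 2 per group, and the signal of a probe set is compared only with itself on other arrays. The median signal per array was 98.1 to 159, and the 30th percentile, below which a signal is called dim, was 26.6 to 48.7. Each array had been scaled to nearly the same trimmed mean, 500.4 to 500.6, but the median log2 signal lay 0.40 higher without ALA than with it and 0.49 higher in hypoxia than in normoxia. Differences were therefore recomputed with quantile normalization and with median centring, which sets every array to the same median. The 3′ over 5′ signal ratio of ACT1, higher where RNA is more degraded, was 2.11 and 2.18 in hypoxia against 1.40 and 1.49 in normoxia, and 1.81 and 1.77 without ALA against 1.86 and 1.57 with it, so it moved with the hypoxia results below, and its part in them was not tested. The control probe set for 18S rRNA stood out on 1 array without ALA and 1 in hypoxia (3507 and 10736, against 115 to 355 on the others), and counts are also given without these 2 high-18S arrays. In bulk cultures, fewer cells in a phase or state that uses a gene and less RNA per cell cannot be told apart.

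The same 5 of the 10 remodelling genes fell under both treatments, and members of 1 enzyme family differed widely. Without ALA 5 of the 10 genes fell (UTR2, GAS1, GAS3, GAS5 and SCW10), 1 was called higher (CRR1) and 4 did not pass an adjusted p of 0.05 in limma. The CRR1 call was made against dim control signals and is not read as a rise. Of all 7081 probe sets tested, 49.9% were called in this comparison, 19.7% lower and 30.2% higher. In hypoxia 7 of the 10 fell, the same 5 with BGL2 and EXG1, and none rose, against 55.8% of all tested probe sets called, 22.5% lower and 33.3% higher. The median log2 difference of the 10 genes was -0.43 without ALA and -1.12 in hypoxia, and that of all tested probe sets was 0.14 and 0.21. The 10 genes were chosen with earlier results of these data known, so the shares give scale and do not test the set. Without the 2 high-18S arrays the counts of falls were 5 and 7 again, and median centring gave 7 and 7. All 10 genes passed the filter on dim signals, although CRR1 did so through both arrays without ALA and 1 in normoxia.

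**Figure D1:**
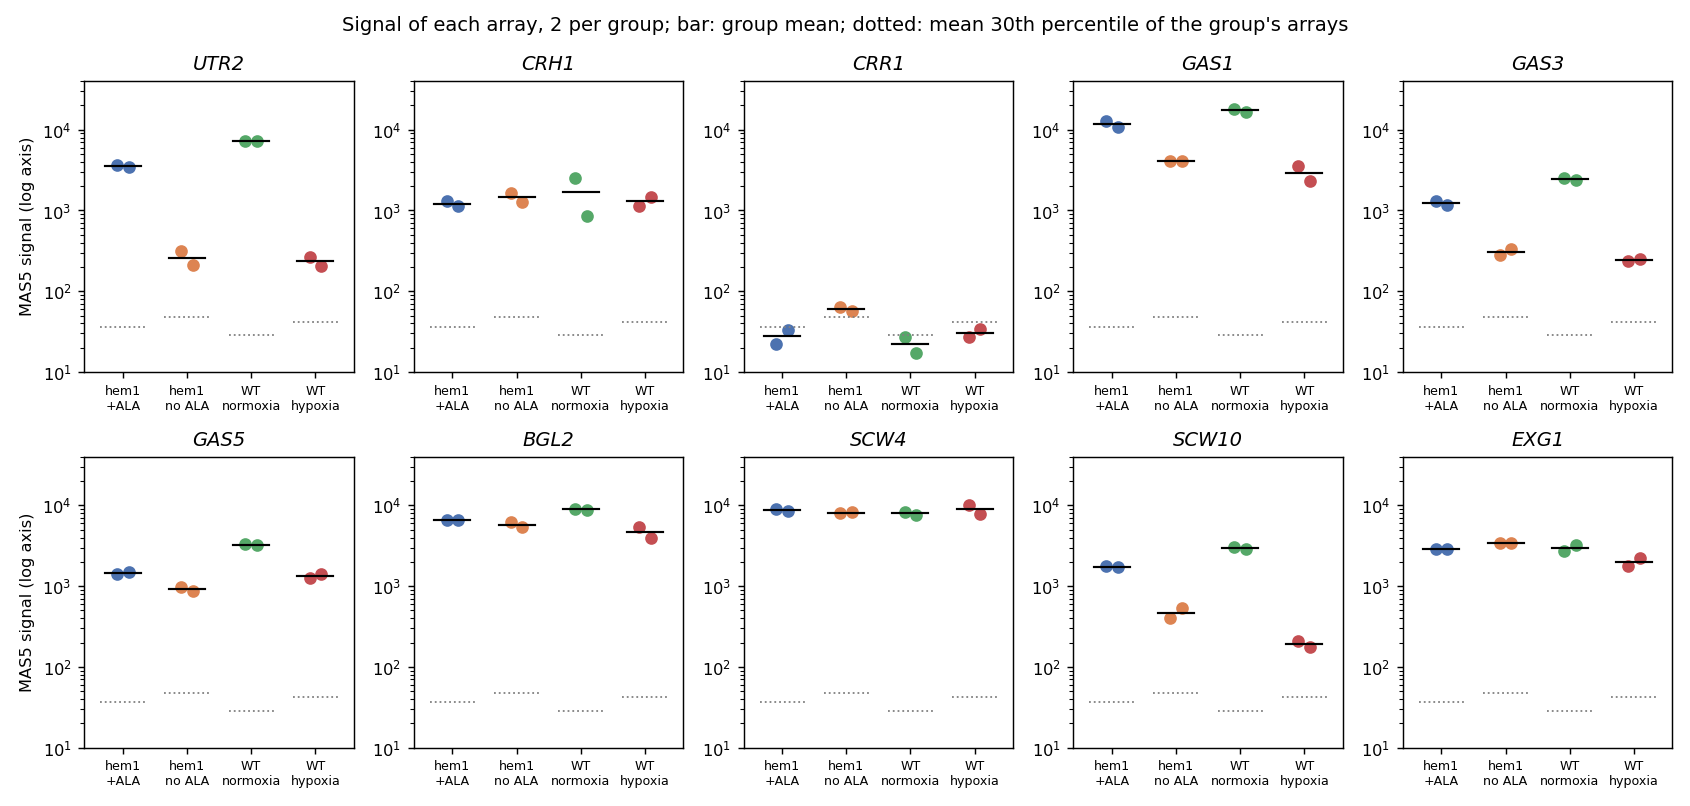
MAS5 signal (log axis) of each of the 10 genes on every array, with 2 points per group, a bar at the group mean and a dotted line at the mean 30th percentile of the group's arrays. UTR2, GAS1, GAS3 and SCW10 are low in both treated groups, SCW4 lies at similar signals in all 4 groups, and CRR1 lies near the dotted line throughout. The normoxia points of CRH1 lie far apart and span those of its other groups.

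The Crh family showed the widest split. UTR2, which encodes one of the chitin transglycosylases of vegetative cells, read 3688 and 3415 with ALA and 311 and 208 without it. It read 7279 and 7157 in normoxia and 262 and 207 in hypoxia. The arrays of the treated and control groups lay far apart, and the treated groups overlapped each other. UTR2 fell 13.9-fold without ALA (log2 difference -3.80, SE 0.21, adjusted p = 6.5e-06, limma) and 31.0-fold in hypoxia (-4.95, SE 0.21, adjusted p = 9.1e-07). Only 9 of 7081 tested probe sets had a lower log2 difference without ALA, and 4 in hypoxia. In the order of its levels, normoxia exceeded hem1 with ALA (adjusted p = 0.0122), which exceeded the group without ALA, while the last differed from hypoxia by 0.13 on the log2 scale (adjusted p = 0.727).

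CRH1, for the enzyme that shares the chitin-to-glucan transfer with Utr2, showed no such fall. Its signals were 1296 and 1122 with ALA, 1660 and 1255 without, 2496 and 849 in normoxia, and 1123 and 1478 in hypoxia. The normoxia arrays spanned the signals of all the others, so the comparison with hypoxia has little precision. The log2 differences were 0.26 without ALA (SE 0.43, adjusted p = 0.641) and -0.18 in hypoxia (SE 0.43, adjusted p = 0.746). With median centring the difference without ALA was -0.14 (adjusted p = 0.809). The hypoxia value turned on which normoxia array was kept: it was -0.95 without normoxia replicate 2 (adjusted p = 0.0153) and 0.60 without normoxia replicate 1 (adjusted p = 0.0839). No neighbouring groups in the order of its levels differed. Within the arrays, the log2 ratio of UTR2 to CRH1 changed by -4.06 without ALA and by -4.78 in hypoxia, with no overlap between groups in either case. A constant factor per array, as in median centring, leaves this ratio as it is, whereas quantile normalization does not.

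CRR1, known from the spore wall, was dim or nearly so everywhere. It read 22.5 and 33.2 with ALA, 63.0 and 57.3 without, 27.0 and 17.4 in normoxia, and 27.3 and 33.9 in hypoxia. Only the arrays without ALA both lay above their 30th percentile. Set against the 30th percentile in place of the dim control signals, CRR1 rose at least 1.66-fold without ALA (log2 difference 1.14, SE 0.35, adjusted p = 0.0273), and the call was lost with quantile normalization (adjusted p = 0.137), with median centring (0.112), without the 2 high-18S arrays (0.158), and without hem1 with ALA replicate 1 (0.143) or either array without ALA (0.11 and 0.0783). In hypoxia its log2 difference was 0.49 (SE 0.35, adjusted p = 0.267), and it passed with low signals raised to the 30th percentile (0.53, adjusted p = 0.0132). That floor replaced both hypoxia signals and the signal of normoxia replicate 2 with the percentiles of their arrays. The value therefore mostly compares array percentiles, and it is not read as a change of CRR1. No neighbouring groups in the order of its levels differed.

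All 3 Gas genes fell under both treatments, to different degrees. GAS1 read 12939 and 10683 with ALA and 4039 and 4041 without. It read 18133 and 16638 in normoxia and 3507 and 2299 in hypoxia. Every control array lay above every treated one. GAS1 fell 2.91-fold without ALA (log2 difference -1.54, SE 0.20, adjusted p = 5.1e-04) and 6.12-fold in hypoxia (-2.61, SE 0.20, adjusted p = 2.3e-05). In the order of its levels only hem1 with ALA and hem1 without ALA differed as neighbours; normoxia exceeded hem1 with ALA with an adjusted p of 0.0817, and the group without ALA exceeded hypoxia with 0.131.

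GAS3, a Gas1 homolog, moved further than GAS1. Its signals were 1315 and 1167 with ALA, 282 and 333 without, 2488 and 2414 in normoxia, and 237 and 253 in hypoxia. The arrays of no pair of groups overlapped. GAS3 fell 4.05-fold without ALA (log2 difference -2.02, SE 0.16, adjusted p = 3.6e-05) and 10.02-fold in hypoxia (-3.32, SE 0.16, adjusted p = 1.6e-06). Normoxia, hem1 with ALA and hem1 without ALA all differed in turn, and the last exceeded hypoxia by 0.32 on the log2 scale (adjusted p = 0.209).

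GAS5, for another glucanosyltransferase of growing cells, changed least of the Gas genes. It read 1402 and 1482 with ALA, 983 and 861 without, 3314 and 3188 in normoxia, and 1248 and 1417 in hypoxia. The hypoxia and ALA-fed arrays overlapped, so the lowest group was hem1 without ALA. GAS5 fell 1.57-fold without ALA (log2 difference -0.65, SE 0.15, adjusted p = 0.00709) and 2.44-fold in hypoxia (-1.29, SE 0.15, adjusted p = 1.7e-04). The within-array log2 ratio of GAS3 to GAS5 changed by -1.37 without ALA and by -2.04 in hypoxia, and that of GAS1 to GAS5 by -0.89 and -1.32, with no overlap between the arrays of the groups compared.

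**Figure D2:**
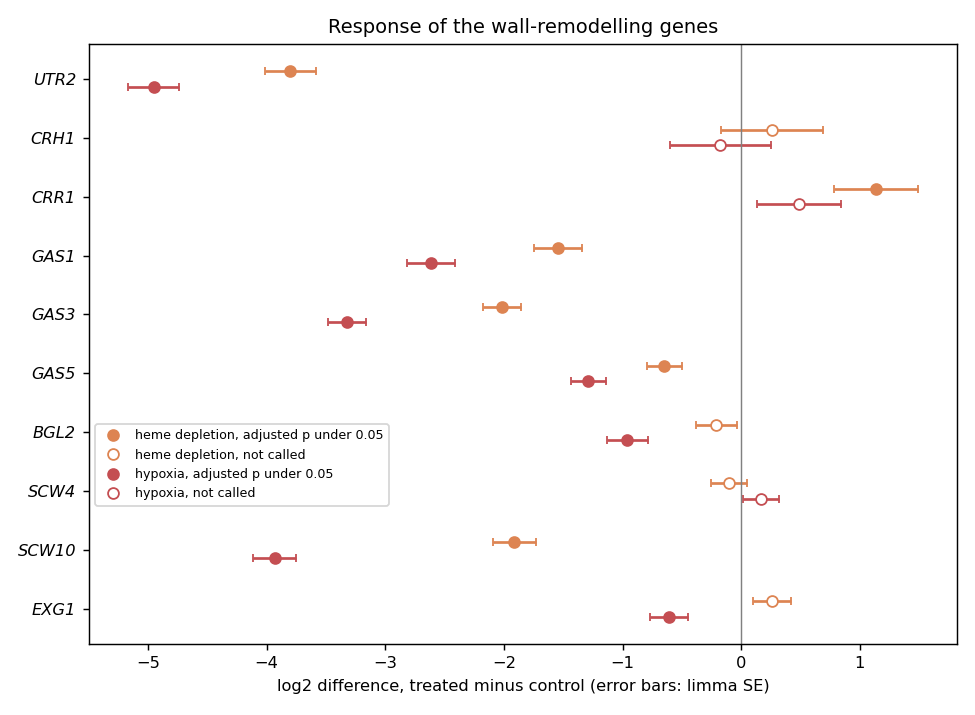
Log2 difference between treated and control arrays for each gene (x axis, error bars are limma standard errors), with heme depletion and hypoxia as separate points and filled points for an adjusted p under 0.05. UTR2, SCW10, GAS3 and GAS1 lie farthest to the left in both comparisons, from -4.95 to -1.54, while CRH1 and SCW4 lie near 0.

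In the Bgl2 family SCW10 fell steeply, BGL2 fell in hypoxia, and SCW4 stayed near its control signal under the deposited scaling. SCW10, for a soluble wall protein, read 1758 and 1730 with ALA, 400 and 536 without, 3024 and 2853 in normoxia, and 208 and 178 in hypoxia on its brighter probe set. All 4 groups were separate and each neighbouring pair in the order of levels differed. SCW10 fell 3.77-fold without ALA (log2 difference -1.91, SE 0.18, adjusted p = 1.0e-04) and 15.3-fold in hypoxia (-3.93, SE 0.18, adjusted p = 1.4e-06), where 10 of 7081 probe sets had a lower value. The other SCW10 probe set did not follow: it read between 48.2 and 168 on the 8 arrays, with differences of -0.47 (adjusted p = 0.496) and 0.14 (adjusted p = 0.841). Which of them reads the gene better is not known here, and every other SCW10 value given is from the brighter one.

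BGL2, for an abundant wall glucanosyltransferase, read 6620 and 6659 with ALA, 6169 and 5327 without, 9132 and 8761 in normoxia, and 5425 and 3900 in hypoxia. Its hypoxia and normoxia arrays were clearly apart, whereas the arrays with and without ALA lay close together without overlapping. No neighbouring groups in the order of its levels differed. BGL2 fell 1.94-fold in hypoxia (log2 difference -0.96, SE 0.17, adjusted p = 0.00187). Without ALA the difference was -0.21 (SE 0.17, adjusted p = 0.334), and it was 0.02 with quantile normalization (adjusted p = 0.941) and -0.61 with median centring (adjusted p = 0.0284).

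SCW4, whose protein is closest in kind to Scw10, read 9050 and 8485 with ALA, 8031 and 8256 without, 8391 and 7591 in normoxia, and 10153 and 7886 in hypoxia. No neighbouring groups in the order of its levels differed. Its log2 difference was -0.11 without ALA (SE 0.15, adjusted p = 0.583) and 0.16 in hypoxia (SE 0.15, adjusted p = 0.375). Both values depended on the scaling: median centring made it a called fall without ALA (-0.51, adjusted p = 0.0415), and quantile normalization a called rise in hypoxia (0.49, adjusted p = 0.0177), where median centring gave -0.32 (adjusted p = 0.154). Within the arrays, under the deposited scaling, the log2 ratio of SCW10 to SCW4 changed by -1.81 without ALA and by -4.10 in hypoxia with no overlap between groups.

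EXG1, for the main secreted exoglucanase, was lowest in hypoxia. It read 2857 and 2881 with ALA, 3401 and 3467 without, 2756 and 3263 in normoxia, and 1755 and 2202 in hypoxia. Only the hypoxia arrays lay below all others, and among neighbours in the order of levels only hem1 with ALA and hypoxia differed (adjusted p = 0.0209). EXG1 fell 1.53-fold in hypoxia (log2 difference -0.61, SE 0.16, adjusted p = 0.0113), a call lost without normoxia replicate 2 (adjusted p = 0.0693) or hypoxia replicate 1 (0.074). Without ALA its difference was 0.26 (SE 0.16, adjusted p = 0.204; -0.14 with median centring).

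**Figure D3:**
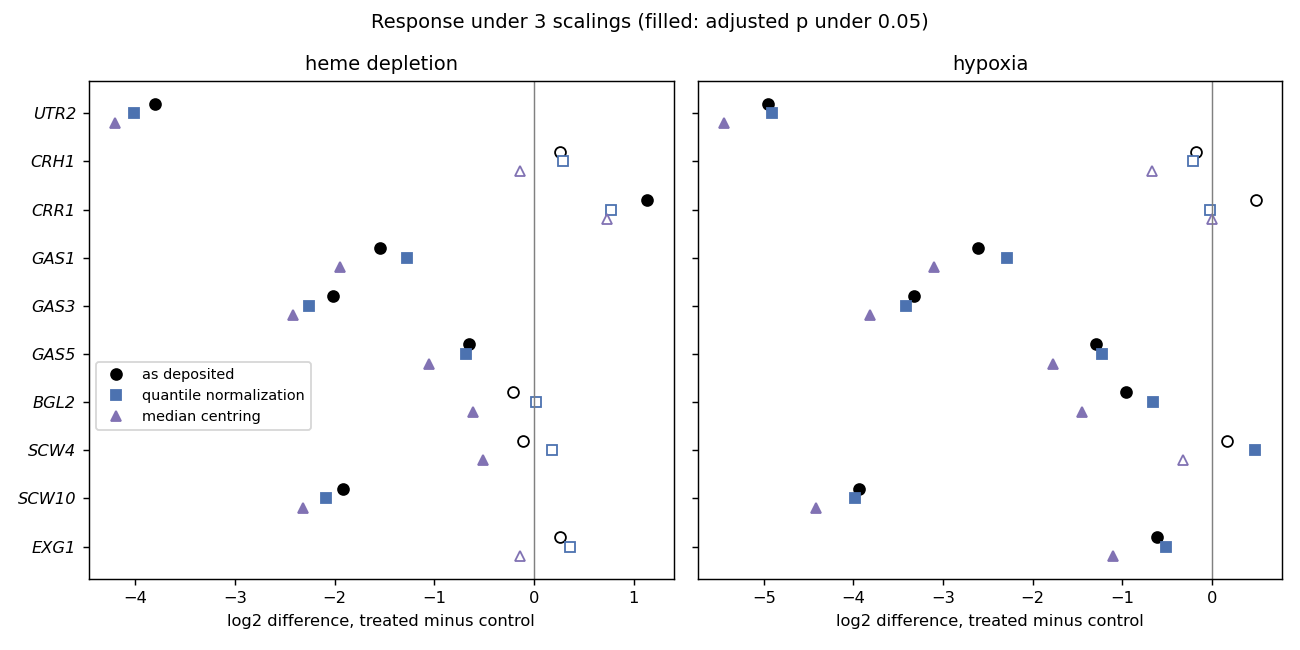
Log2 difference of each gene in heme depletion (left) and hypoxia (right) under the deposited scaling, quantile normalization and median centring, filled where the adjusted p is under 0.05. UTR2, GAS1, GAS3, GAS5 and SCW10 stay below 0 and filled under all 3 scalings in both panels. SCW4 changes side in both panels, CRH1, BGL2 and EXG1 in heme depletion, and CRR1 in hypoxia.

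The falls were larger in hypoxia than in heme depletion for several genes, although each treatment had its own strain and culture time, and these 3 cannot be told apart here. The difference of the responses (heme depletion minus hypoxia) passed for 5 of the 10 genes, all with a higher value in heme depletion, against 17.8% of all tested probe sets called, 8.46% higher and 9.29% lower. The values were 2.02 for SCW10 (SE 0.26, adjusted p = 0.00246), 1.31 for GAS3 (SE 0.22, adjusted p = 0.00751), 1.15 for UTR2 (SE 0.30, adjusted p = 0.0334), 1.07 for GAS1 (SE 0.29, adjusted p = 0.0358) and 0.87 for EXG1 (SE 0.23, adjusted p = 0.0323). SCW10 and GAS3 passed under every alternative run, and 2 of 10 genes were called without the 2 high-18S arrays. UTR2 lost its call when any array but hem1 without ALA replicate 2 was left out (adjusted p = 0.0577 to 0.102), GAS1 when any but hypoxia replicate 1 was (0.0584 to 0.107), and EXG1 when any but normoxia replicate 1 or hypoxia replicate 2 was (0.0678 to 0.102). GAS5 (0.64, adjusted p = 0.0676), BGL2 (0.75, adjusted p = 0.0694), CRR1 (0.64, adjusted p = 0.407), CRH1 (0.43, adjusted p = 0.658) and SCW4 (-0.27, adjusted p = 0.411) did not pass. These calls also moved with the scaling. Quantile normalization gave 4 genes, without UTR2 (0.90, adjusted p = 0.0929), and median centring gave 6, with GAS5 among them (0.73, adjusted p = 0.0455).

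The control cultures started from different levels. In hem1 with ALA 4 of the 10 genes were lower than in normoxia and none was higher, against 7.92% and 13.8% of all tested probe sets (21.7% in either direction). GAS5 was 2.26-fold lower (adjusted p = 0.00137), UTR2 2.03-fold (0.0122), GAS3 1.98-fold (0.00392) and SCW10 1.68-fold (0.0216). Without hem1 with ALA replicate 1, and likewise without replicate 2, only 2 of the 10 genes were called, since UTR2 (adjusted p = 0.0517 and 0.0734) and SCW10 (0.0836 and 0.099) lost their calls. SCW10 also lost its call without either normoxia array (0.0818 and 0.0556), and median centring gave 6 genes. The treated cultures were compared in the same way, hem1 without ALA against hypoxia, where 2 genes were higher and 1 lower, against 8.46% and 6.55% of all tested probe sets (15.0% in either direction). SCW10 was 2.41-fold higher without ALA than in hypoxia (adjusted p = 0.00356) and EXG1 1.75-fold (0.0131; 0.0609 without hem1 without ALA replicate 2 and 0.0933 without hypoxia replicate 1), while GAS5 was 1.45-fold lower (0.0456), a call lost when any single array was left out. UTR2 (0.13, adjusted p = 0.727), GAS3 (0.32, adjusted p = 0.209) and GAS1 (0.51, adjusted p = 0.131; 0.0499 with quantile normalization) did not pass.

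Other tested genes followed the same pattern over the arrays. By Pearson correlation of log2 signals over the 8 arrays, a description in which all genes share the arrays, their scaling and the split into treated and control groups, UTR2 was most like TUB2, which encodes β-tubulin (0.998), SUP19 (0.996) and PET9, for the mitochondrial ADP/ATP carrier (0.995). GAS1 was most like RPS0A, a ribosomal protein gene (0.997), DUO1, a spindle gene (0.994), and THS1, for a tRNA synthetase (0.993). GAS3 was most like PET9 (0.994), FUN12 (0.993) and APA1 (0.993), and SCW10 most like SNR69 (0.994), the pheromone gene MF(ALPHA)1 (0.993) and the ribosomal protein gene RPL13B (0.992). GAS5 was most like NFU1 (0.993) and the cytochrome oxidase genes COX26 (0.991) and COX4 (0.99). For BGL2 they were CMI7 (0.984), CKB1 (0.973) and RPT6 (0.972), for EXG1 TAH1 (0.97), HIF1 (0.97) and YOL014W (0.969), and for CRR1, near background, YBR287W (0.973), GLO4 (0.971) and THI2 (0.966). CRH1 had no match above 0.941 (CST26, then YGL108C at 0.889 and AVT2 at 0.838), and SCW4 none above 0.956 (YOR192C-C, then YOR192C-B at 0.831 and DAL81 at 0.817).

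Some chromosomal neighbours, chosen after their values were seen, are given for UTR2, SCW10 and GAS1. SCW10, FKS3 and GAS1 lie next to each other in this order in the RefSeq gene table (assembly R64). FKS3, a homolog of the glucan synthase genes, read 97.9 and 93.0 with ALA, 719 and 715 without, and in the wild type 60.6 and 68.6 under normoxia against 280 and 314 under hypoxia. Its level rose 7.52-fold without ALA (adjusted p = 7.7e-06) and 4.60-fold in hypoxia (adjusted p = 2.2e-05), between neighbours that fell. PSE1, on the other side of GAS1, fell under both treatments (-0.81, adjusted p = 0.00283, and -0.43, adjusted p = 0.0381, on the log2 scale). UBP15, on the other side of SCW10, rose without ALA (1.03, adjusted p = 0.0148) and did not pass in hypoxia (0.21, adjusted p = 0.55). The FKS3 values are from 1 of 8 FKS3 probe sets, and the other 7 never exceeded 70.2, with at most 1 array of each above its 30th percentile. UTR2 lies between YEF1, an NAD kinase gene, and CYC7, the hypoxic cytochrome c gene. YEF1 rose under both treatments (2.28, adjusted p = 0.00631, and 2.07, adjusted p = 0.00853, on the log2 scale, each with SE 0.51). CYC7 rose in hypoxia (1.07, adjusted p = 0.00341) and did not pass without ALA (0.22, adjusted p = 0.418). For YEF1, CYC7, PSE1 and UBP15 only the deposited scaling is given. Under it the median log2 signal of all probe sets was itself higher, by 0.40 without ALA and 0.49 in hypoxia.

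Among 7 genes for glucan synthase and its regulators, 4 rose and 1 fell under each treatment, with medians of 1.22 without ALA and 0.74 in hypoxia. Of all tested probe sets 30.2% were higher and 19.7% lower without ALA, and 33.3% and 22.5% in hypoxia. This list and those below were chosen with earlier results of these data known, so such shares give scale and test no list. Median centring gave 4 rises and 3 falls without ALA, and 3 rises and 2 falls in hypoxia. GSC2, for the alternative glucan synthase subunit, read 925 and 921 with ALA, 2010 and 2785 without, and in the wild type 193 and 178 under normoxia against 3574 and 3428 under hypoxia. Its level rose 2.56-fold without ALA (adjusted p = 5.2e-04) and 18.9-fold in hypoxia (adjusted p = 8.2e-07), and its arrays never overlapped. FKS1, for the main synthase subunit of growing cells, fell 1.90-fold in hypoxia (adjusted p = 0.00176) and had a difference of -0.16 without ALA (adjusted p = 0.448; -0.56 with median centring, adjusted p = 0.0168). ROM1, for an activator of the Rho1 GTPase that switches the synthase on, rose 3.18-fold without ALA (adjusted p = 0.00124) and 7.11-fold in hypoxia (5.9e-05). ROM2, for a related activator, rose 2.33-fold without ALA (4.6e-04) and 1.66-fold in hypoxia (0.00441; 0.208 with median centring and 0.0715 with quantile normalization). SMI1, a regulator of wall synthesis, fell 1.69-fold without ALA (adjusted p = 0.0229).

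For β-1,6-glucan synthesis 6 of 11 genes rose and 1 fell without ALA, and 3 rose and 3 fell in hypoxia, beside 30.2% higher and 19.7% lower of all tested probe sets without ALA, and 33.3% and 22.5% in hypoxia. These counts depended on the scaling, with 1 rise and 2 falls without ALA, and no rise and 5 falls in hypoxia, after median centring. KNH1 rose 2.12-fold without ALA (adjusted p = 0.00183) and KRE1, for a wall β-glucan assembly protein, 1.74-fold (0.00507; 0.0836 with median centring). SKN1, a homolog of KRE6, rose 1.76-fold without ALA (adjusted p = 0.0145) and 1.78-fold in hypoxia (0.0115), and KRE5 1.62-fold (0.00522) and 1.51-fold (0.00968), all 4 calls lost with median centring (0.103 to 0.572). KRE6, for a protein needed for this synthesis, rose 1.55-fold without ALA (adjusted p = 0.0167) and 1.56-fold in hypoxia (0.0134), calls lost with median centring (0.306 and 0.484) and quantile normalization (0.0649 and 0.0785). CWH41, for an ER glucosidase, fell 1.76-fold in hypoxia (adjusted p = 0.00289). KEG1, whose product binds Kre6, fell 2.41-fold without ALA (adjusted p = 0.00843) and 4.13-fold in hypoxia (6.4e-04).

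For chitin synthesis 3 of 12 genes rose and 2 fell without ALA (30.2% and 19.7% of all tested probe sets), and 1 rose and 5 fell in hypoxia (33.3% and 22.5%). The balance without ALA turned with the scaling, to 1 rise and 3 falls with median centring and 2 of each with quantile normalization, and in hypoxia these gave 0 rises with 7 and 5 falls. CHS1, for the synthase that repairs the wall after cell separation, read 136 and 197 with ALA, 585 and 600 without, and in the wild type 204 and 203 under normoxia against 344 and 369 under hypoxia. Its level rose 3.62-fold without ALA (adjusted p = 2.0e-04) and 1.75-fold in hypoxia (0.009; 0.177 with median centring and 0.0864 with quantile normalization). CHS2, for the synthase of the primary septum, fell 4.16-fold (adjusted p = 1.0e-04) and 4.20-fold (6.3e-05), and CHS7, needed for export of the CHS3 product, 2.54-fold (0.00144) and 1.97-fold (0.00538). PCM1, of the chitin precursor pathway, rose 1.47-fold without ALA (adjusted p = 0.0195; 0.448 with median centring) and fell 1.37-fold in hypoxia (0.0394; 0.0742 with quantile normalization). CHS3, for the synthase that makes most chitin, did not pass under either treatment (-0.29, adjusted p = 0.369, and -0.19, adjusted p = 0.545). GFA1, for the first enzyme of the pathway to the chitin precursor, fell 2.83-fold in hypoxia (adjusted p = 1.4e-04), with a difference of 0.07 without ALA (adjusted p = 0.758).

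The cell separation genes, including hydrolases that dissolve the septum between mother and daughter, fell in 10 of 10 cases without ALA, with a median of -2.50, and in 6 cases in hypoxia, with a median of -0.79 and 1 rise. Of all tested probe sets 19.7% were lower without ALA and 22.5% in hypoxia. The list was chosen with earlier results of these data known, so its counts do not test it. The falls in hypoxia numbered 8 with quantile normalization and 9 with median centring. SUN4, for a septation protein, fell 7.97-fold without ALA (adjusted p = 3.5e-06) and 2.65-fold in hypoxia (1.1e-04). The endochitinase gene CTS1 fell 2.53-fold (adjusted p = 1.7e-04) and 1.30-fold (0.0449; 0.454 with quantile normalization). SCW11, the daughter-cell homolog of SCW4 and SCW10, read 593 and 640 with ALA, 51.3 and 33.5 without, 369 and 399 in normoxia, and 200 and 166 in hypoxia, a fall of at least 12.6-fold without ALA (adjusted p = 8.3e-06) and of 2.11-fold in hypoxia (0.00434). DSE2, a daughter-cell wall gene, fell 18.2-fold (adjusted p = 1.5e-06) and 2.56-fold (1.9e-04), PRY3 4.35-fold (6.6e-05) and 3.50-fold (1.0e-04), and AMN1 5.21-fold (8.4e-05) and 4.26-fold (1.1e-04). DSE4, for a septum glucanase, went opposite ways: it fell 4.77-fold without ALA (adjusted p = 5.8e-05) and rose 3.53-fold in hypoxia (1.2e-04).

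Among spore wall genes and homologs of the 10 enzymes, 6 of 11 genes could be tested, of which 3 rose without ALA and 4 in hypoxia, all but CDA2 of these against dim or nearly dim control signals. The filter on dim signals passed several of them mainly through the treated arrays, so the counts support nothing about the list, and both other scalings gave 3 rises and 1 fall under each treatment. Of all tested probe sets 30.2% were higher without ALA and 33.3% in hypoxia. SPS100, a spore wall gene, rose at least 13.9-fold without ALA (adjusted p = 6.7e-05) and at least 8.98-fold in hypoxia (1.3e-04). GAS4, a Gas gene known from sporulation, rose at least 2.20-fold without ALA (adjusted p = 0.00553) and did not pass in hypoxia (0.72, adjusted p = 0.0574). GAS2, its partner there, was dim on both arrays of both wild type groups, where its call in hypoxia (adjusted p = 0.0301; 0.205 with quantile normalization and 0.191 with median centring) has no interpretable fold, and did not pass without ALA (-0.32, adjusted p = 0.467). CDA1, a chitin deacetylase gene of the spore wall, had signals of 49.0 and 32.1 on the arrays without ALA and of 41.0 and 56.2 under hypoxia, with no control array above 0.572. It passed the filter through 1 array of each treated group, the other being dim too, so its calls are not read as changes. CDA2, its homolog, rose 3.20-fold in hypoxia (adjusted p = 0.00403). That value is from its brightest probe set. The other CDA2 probe sets were dim on all 8 arrays, at 18.5 or less, so they do not bear on the rise.

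Other wall glucan-associated genes rose in 5 and fell in 3 of 11 cases without ALA, and rose in 6 and fell in 4 in hypoxia. Of all tested probe sets, 30.2% were called higher and 19.7% lower without ALA, and 33.3% and 22.5% in hypoxia. With median centring there were 5 rises and 4 falls without ALA, and 5 of each in hypoxia. PST1, a wall protein gene known from wall stress, rose 6.08-fold and 4.08-fold (adjusted p = 7.7e-06 and 1.9e-05), and NCA3, of the same SUN family as SUN4, 4.49-fold and 23.1-fold (5.3e-04 and 8.5e-06). YPS1, for a surface protease, rose 3.14-fold and 1.46-fold (1.4e-04 and 0.0223; 0.798 in hypoxia with median centring). SIM1, another SUN gene, fell 5.33-fold and 2.40-fold (1.7e-05 and 3.5e-04), TOS1, for a wall protein, 2.80-fold and 2.43-fold (9.0e-05 and 1.2e-04), and ECM33, a wall organisation gene, 2.43-fold and 3.25-fold (7.2e-04 and 1.2e-04). The wall integrity list, which holds the sensors, kinases and targets of the pathway that answers wall damage, had 9 rises and 4 falls among 18 tested genes under each treatment, beside 30.2% higher and 19.7% lower of all tested probe sets without ALA, and 33.3% and 22.5% in hypoxia. Median centring gave 7 rises and 4 falls without ALA, and 6 rises and 5 falls in hypoxia. PIR3 rose 26.1-fold without ALA and 37.1-fold in hypoxia (adjusted p = 2.4e-06 and 6.8e-07), BCK1, a kinase gene of the pathway, 3.67-fold and 3.93-fold (1.6e-04 and 8.1e-05), and SLT2, for its final kinase, 2.17-fold and 1.89-fold (0.00587 and 0.0121; 0.19 in hypoxia with median centring). PIR1, for a related glucan-bound protein, fell 7.99-fold and 1.84-fold (1.3e-05 and 0.00498), CIS3, another, 3.00-fold and 2.57-fold (1.8e-04 and 2.7e-04), and the mannoprotein gene CWP1 6.03-fold and 32.2-fold (6.3e-04 and 1.5e-05). SRL3 rose 9.19-fold and 2.61-fold (1.6e-05 and 8.8e-04).

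Of 7 tested G1/S regulators, a list included because several wall genes are transcribed late in G1, 1 fell and none rose without ALA, and 3 fell and 1 rose in hypoxia, beside 19.7% and 22.5% of all tested probe sets called lower. Without ALA 2 fell with either other scaling, and in hypoxia 5 fell with quantile normalization and 6 with median centring, with 0 rises. CLN1, a G1 cyclin gene, fell 2.81-fold without ALA (adjusted p = 6.6e-04) and at least 8.22-fold in hypoxia (9.4e-06). STB1 fell at least 1.89-fold in hypoxia (adjusted p = 0.00965), and MBP1 rose 1.81-fold (0.0166), which did not pass with either other scaling (0.262 and 0.311). The cell cycle phase of the cultures was not measured, and its part in the values of the 10 genes was not tested.

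**Figure D4:**
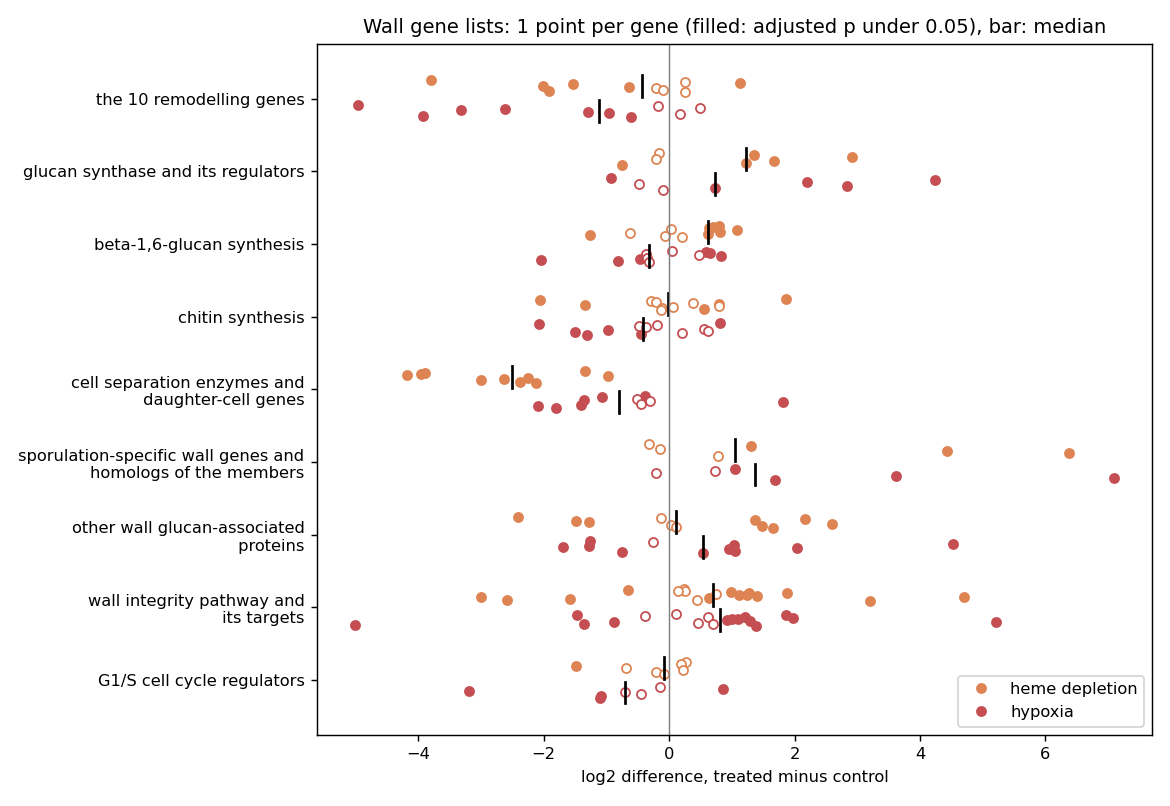
Log2 difference of every tested gene of the 10 remodelling enzymes and of 8 other wall and cell cycle lists, 1 point per gene, with heme depletion and hypoxia in separate rows, filled points for an adjusted p under 0.05 and a bar at the median. The 10 remodelling genes have medians of -0.43 and -1.12, the glucan synthase list 1.22 and 0.74, and the cell separation list -2.50 and -0.79.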

How the data were processed

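The authors deposited a linear signal intensity for every probe set of each array. The submitters' processing notes name MAS5 as the method, and the sources used here give no version of it. Array brightness limits the precision, and detection calls were not used here. The table held 9335 probe sets, 60 of them controls. The annotation of the platform supplied the names (6504 probe sets with 1 gene, 328 with several, 2443 with none), and the gene IDs of all 6504 occur in the RefSeq table, used for names and neighbours only. Probe sets above the 30th percentile of their array on at least 2 of 8 arrays were tested, 7081 in all. The fit, by limma 3.58.1 (R 4.3.3) on the log2 scale, had a mean for every group, a spread shared by all arrays (4 residual and 4.36 prior degrees of freedom) and an intensity trend. Tests were two-sided, and Benjamini-Hochberg adjustment ran over all 7081; every adjusted p is from this fit or from the alternative named beside it. Where an array of the lower group was dim, the fold is "at least" the ratio to the higher of its signal and its 30th percentile. The adjusted p beside such a fold is from the signals as deposited. The brightest probe set stands for a gene that has several. The script was tested on simulated data. The members and lists were chosen with earlier results of these data known. The rule for named genes took all 10 members, up to 2 genes per list, direction and treatment with the smallest adjusted p among those whose arrays do not overlap, 11 genes whatever their values, and for each member the 3 most alike genes. ROM1, CDA2 and the neighbours YEF1, CYC7, PSE1 and UBP15 fall outside it and were chosen after their values were seen. The alternatives were the scaling, a floor, a pseudocount of 16, the filter, the trend, the samples in the fit, and leaving out arrays.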

Additional observations from a re-analysis of the deposited data

Results flagged for a closer look

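The log2 difference in heme depletion was higher than that in hypoxia, by a test of the difference itself in limma, for 5 of the 10 genes. The differences were 1.15 for UTR2, 1.07 for GAS1, 1.31 for GAS3, 2.02 for SCW10 and 0.87 for EXG1. The first 4 fell under both treatments and by more in hypoxia, while EXG1 was called in hypoxia alone. Strain and culture time differ between the treatments and cannot be told apart from them. SCW10 and GAS3 were called under every alternative run, the other 3 were not.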

How the results depend on the processing

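In all, 919 differences of the members were recomputed under the alternatives; 848 kept their side of the threshold, 56 lost it, 15 gained it and none of those called changed sign. The falls of UTR2, GAS1, GAS3, GAS5 and SCW10 (brighter probe set) held under every alternative in both treatments, while the other SCW10 probe set was called under none. The members called higher without ALA went from 1 to 0 with quantile normalization, median centring, a filter on all 8 arrays and without the 2 high-18S arrays, and were 0 to 1 with single arrays left out. In hypoxia 1 member was called higher with quantile normalization (SCW4) and 1 with a floor (CRR1), against 0. The difference of the responses was called for 2 members without the intensity trend and 2 without the 2 high-18S arrays, against 5, and for 2 to 4 with single arrays left out; over all probe sets it was called for 467 without the 2 high-18S arrays, against 1257, and for 533 to 1089 with single arrays left out. Lower members in the control cultures numbered 2 to 5 with single arrays left out, and probe sets called 695 to 1514 against 1540. In the treated cultures 1 member was higher without the 2 high-18S arrays and 1 to 2 with single arrays left out, and 0 were lower without the trend, without the 2 high-18S arrays, in a fit of only the 2 groups, and with any array left out (0 to 0); 265 probe sets were called without the 2 high-18S arrays, against 1063, and 320 to 1121 with single arrays left out. Where a group was left with 1 array, it was assumed to vary like the other groups. The causes were not tested. With median centring 36.8% of calls without ALA and 35% in hypoxia were higher, and with quantile normalization 46.5% and 43.9%, against 60.6% and 59.6%; for the control cultures 35.9% and 47.1% against 63.6%, and for the treated cultures 39.6% with median centring against 56.3%. No paired analysis was possible because the labels give no replicate numbers that groups share. CRR1 lies near background, which limits its values.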
